A study of Mus musculus with 20 samples.

Results

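Per1 and Fkbp5 were followed through the livers of 20 mice. They are 2 of the 2200 mouse genes whose counts were high enough to test, and they were chosen by their measured levels in these 4 groups, so their own levels and changes are given as a description, with no test. Each group had 5 mice: anti-CD40 with antibiotics (Anti-CD40_ABX), anti-CD40 without antibiotics (Anti-CD40_No_ABX), control with antibiotics (Control_ABX) and control without antibiotics (Control_No_ABX). Anti-CD40 is an antibody directed at CD40, which antigen-presenting cells carry and which belongs to the TNF receptors. Each library was made from the frozen liver of 1 mouse. The dose, timing and action of the antibody, what the control mice received in its place, the antibiotics, the strain, sex and age of the mice, and the hour of the day at which livers were taken are not stated in the sources used here.

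Per1 encodes a repressor of the circadian clock. The clock's activators, CLOCK and BMAL1, bind E-box sequences and switch on the period and cryptochrome genes, whose proteins then hold those activators back. Per1 is also induced directly by hormones, through cAMP response elements bound by CREB and through glucocorticoid response elements bound by the glucocorticoid receptor, and its liver level is known to change over the day. Fkbp5 encodes FKBP51, an immunophilin that joins HSP90 on the glucocorticoid receptor and lowers the receptor's affinity for hormone. The receptor in turn induces Fkbp5, which closes a short negative feedback loop.

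The counts cover only parts of both genes, because fragments aligned to the mouse genome (mm10) had been counted at the exon positions of a human annotation, per the file headers. Per1 (ENSMUSG00000020893.17, chr11:69095217-69109960, plus strand) had 177 counted bp, which is 3.14% of its exon bases. These were the whole of exon 13, 31 bp of exon 14 and 14 bp of exon 23, the last of 23 exons, and all of them are coding. The whole counted feature is 622 bp long, and fragments over its other bases, which lie over no Per1 exon, also count towards the Per1 level. Fkbp5 (ENSMUSG00000024222.17, chr17:28399094-28517527, minus strand) was the sum of 2 counted intervals. The first held 126 bp of coding exon 9 together with stretches of the 3' untranslated region of exon 11. Those stretches lay under a second counted feature as well, and a fragment that overlaps 2 features is by default assigned to neither. This feature is 7838 bp long in all, of which 1274 bp lie over Fkbp5 exons. The second was 439 bp (chr17:28497343-28497781) over an exon of the retained-intron transcript Fkbp5-204, called the upstream intron interval here. It lies 11194 bases before the start of the main transcript, whose promoter is shown here, and 6 of 15 annotated Fkbp5 transcripts span it. Every counted Per1 and Fkbp5 interval passed the minimum of 50 bp of exon overlap by a wide margin. A further feature over Fkbp5 exons 10 and 11 was left out of the sum because it also covers 170 bp of the neighbouring gene Tulp1; it is 11137 bp long and its values are given apart. The exon stretches behind the counts are shown from the GENCODE M21 transcripts, with the counted bases in capitals. They hold coding sequence under these features and are only a part of the bases over which fragments were counted.
Per1 exon 13, chr11:69103549-69103680, plus strand: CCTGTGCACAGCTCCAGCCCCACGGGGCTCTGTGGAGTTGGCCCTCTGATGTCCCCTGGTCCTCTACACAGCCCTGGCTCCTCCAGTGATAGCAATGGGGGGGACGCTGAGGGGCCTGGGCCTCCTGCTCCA
Per1 exon 14, chr11:69103842-69103947, plus strand: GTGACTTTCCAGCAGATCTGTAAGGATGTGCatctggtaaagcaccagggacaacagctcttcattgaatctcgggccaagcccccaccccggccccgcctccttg
Fkbp5 exon 9, chr17:28406085-28406270, minus strand: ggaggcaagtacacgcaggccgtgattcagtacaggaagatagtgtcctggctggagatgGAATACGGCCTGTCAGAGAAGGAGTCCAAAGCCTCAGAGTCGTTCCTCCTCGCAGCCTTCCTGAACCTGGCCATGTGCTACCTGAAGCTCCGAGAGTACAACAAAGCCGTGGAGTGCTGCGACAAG

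The promoters of both genes were searched for the E-boxes and response elements named above. For each RefSeq start site the 250 bases before it are given (GRCm38.p6), with capitals for the palindromic E-box CACGTG and for the half-site of the cAMP response element, TGACG.
Per1 promoter 1, chr11:69098699-69098948, plus strand: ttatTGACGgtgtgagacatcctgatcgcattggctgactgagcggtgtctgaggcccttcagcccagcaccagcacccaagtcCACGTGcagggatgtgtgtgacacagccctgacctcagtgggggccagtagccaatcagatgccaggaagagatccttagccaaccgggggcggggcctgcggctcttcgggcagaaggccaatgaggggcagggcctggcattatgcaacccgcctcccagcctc
Per1 promoter 2, chr11:69099902-69100151, plus strand: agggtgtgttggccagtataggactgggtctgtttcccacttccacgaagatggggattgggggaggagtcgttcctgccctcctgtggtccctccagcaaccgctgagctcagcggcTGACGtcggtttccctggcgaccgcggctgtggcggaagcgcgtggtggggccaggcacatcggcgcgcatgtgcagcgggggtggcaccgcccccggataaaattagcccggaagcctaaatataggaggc
Fkbp5 promoter, chr17:28486150-28486399, minus strand: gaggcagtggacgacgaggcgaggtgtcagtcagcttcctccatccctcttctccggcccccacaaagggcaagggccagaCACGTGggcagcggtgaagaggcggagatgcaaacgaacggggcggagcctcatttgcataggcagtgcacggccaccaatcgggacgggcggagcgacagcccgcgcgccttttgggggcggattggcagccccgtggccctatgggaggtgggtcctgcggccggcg
One E-box stood in Per1 promoter 1, its first base 166 bases before the start, and one in the Fkbp5 promoter, 169 bases before it. Of 32841 mouse promoter windows of the same length, 6.02% held CACGTG. The TGACG half-site stood in both Per1 promoters, 246 and 132 bases before their starts, and 17.8% of windows held it on either strand. The full cAMP response element, TGACGTCA, and the glucocorticoid half-site, AGAACA, were searched on both strands and matched in none of these windows; 1.55% and 16.1% of all windows held them. These matches describe the letters only.

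Per1 had 20.0, 13.3, 21.7, 13.6 and 18.8 normalised counts per 1000000 (CPM) in the 5 anti-CD40 mice with ABX, and 32.3, 36.9, 38.3, 25.8 and 34.7 CPM in the 5 anti-CD40 mice without ABX. In control mice it had 19.3, 48.6, 44.3, 60.3 and 34.9 CPM with ABX and 12.99, 19.6, 16.5, 15.4 and 17.5 CPM without ABX. Levels were thus higher without ABX among anti-CD40 mice and, apart from 1 mouse, higher with ABX among control mice. The group means were 17.5 ± 3.84 and 33.6 ± 4.89 CPM in anti-CD40 mice with and without ABX, and 41.5 ± 15.4 and 16.4 ± 2.43 CPM in control mice with and without ABX (SD, n = 5 each). Behind each value stood 78 to 341 counted fragments. Control mice with ABX were the most spread, and mouse 1 of that group, at 19.3 CPM, lay among the control mice without ABX, whose highest value was 19.6 CPM. In bulk liver, fewer cells of a type and less RNA per cell cannot be told apart.

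In order of level, control mice with ABX came first and anti-CD40 mice without ABX second, and these groups overlapped, with means that differed by less than the larger SD. Anti-CD40 mice with ABX came next and did not overlap with the group above them. Control mice without ABX were last, overlapping with the group above them, and the means of these groups differed by 1.06 CPM. There was thus a higher and a lower pair of groups, apart from mouse 1.

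Fkbp5 had 60.9, 64.9, 61.9, 53.8 and 62.4 CPM in anti-CD40 mice with ABX, and 91.6, 90.9, 70.3, 87.8 and 97.4 CPM in anti-CD40 mice without ABX. In control mice it had 28.9, 49.5, 50.4, 57.8 and 47.4 CPM with ABX and 48.9, 70.6, 81.5, 57.5 and 79.2 CPM without ABX. Within both treatments the mice with ABX were the lower ones, without overlap in anti-CD40 mice and with overlap in control mice. The means were 60.8 ± 4.19 and 87.6 ± 10.3 CPM in anti-CD40 mice with and without ABX, and 46.8 ± 10.8 and 67.5 ± 14.04 CPM in control mice with and without ABX (SD, n = 5 each). The order was anti-CD40 without ABX, control without ABX, anti-CD40 with ABX and control with ABX, and each group overlapped with its neighbour. Behind each value stood 180 to 710 counted fragments. Mouse 1 was again the lowest of its group, at 28.9 CPM.

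**Figure D1:**
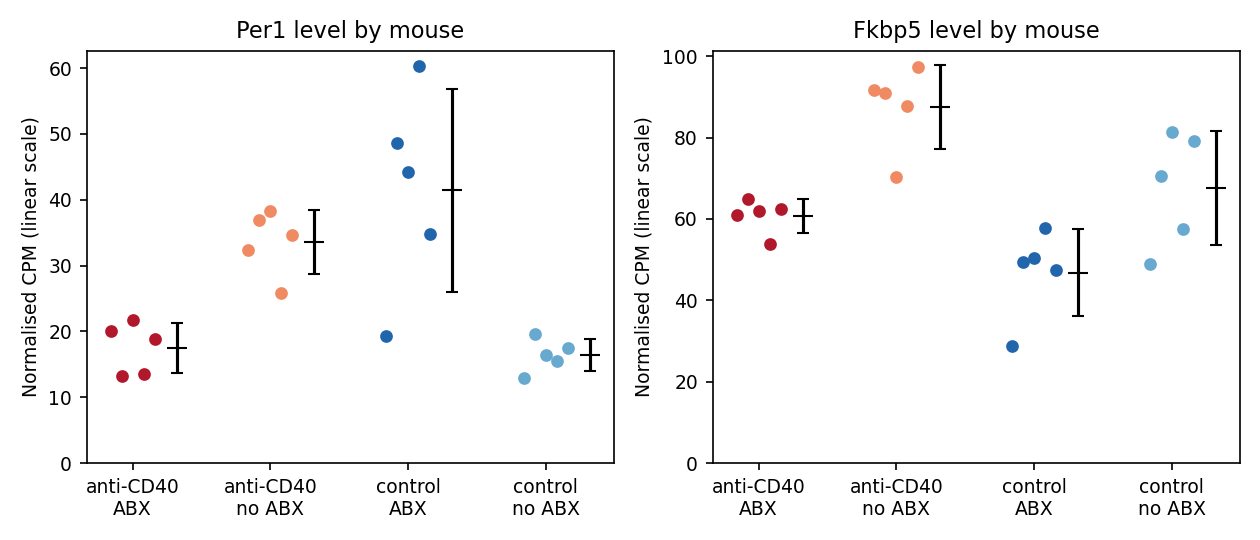
Normalised CPM of Per1 (left) and Fkbp5 (right) in each of 20 mice, with the mean and SD of each group of 5 beside the points. Per1 is high in anti-CD40 mice without ABX (33.6 CPM) and control mice with ABX (41.5 CPM), whereas Fkbp5 is lower with ABX in both treatments.

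The 2 intervals that make up the Fkbp5 sum did not behave alike. Over the exon 9 interval alone, levels were 55.4 ± 4.43 and 72.9 ± 10.02 CPM in anti-CD40 mice with and without ABX, and 46.4 ± 10.9 and 67.2 ± 13.8 CPM in control mice with and without ABX (SD, n = 5 each). The upstream intron interval held 15 to 39 counts per mouse in anti-CD40 mice with ABX and 59 to 136 without ABX, against 1 to 4 in control mice with ABX and 0 to 4 without ABX. It was therefore near 0 in every control mouse and above every control mouse in all 10 anti-CD40 mice. Counts were also summed over each group's mice and divided by the TMM-scaled library totals. This rate was 12.8-fold higher in anti-CD40 than in control mice with ABX (167 against 12 counts). Without ABX it was 47.5-fold higher (486 against 10 counts). In anti-CD40 mice the rate stood at 0.366-fold with ABX relative to no ABX. These ratios are a description only, since Fkbp5 was chosen by its levels in these groups, and mice of a group differed. The upstream intron interval made up a median of 9.64% and 17.5% of the Fkbp5 counts in anti-CD40 mice with and without ABX. In control mice it made up 0.778% and 0.258% with and without ABX. The counted feature is 3226 bp long and only 439 bp of it lie over an annotated mouse exon, and the counts carry no strand, so transcripts other than Fkbp5 could not be separated from it.

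Other intronic stretches did not share that pattern of levels. The 4 counted features that lie wholly within other Fkbp5 introns, 1945 bp in all, held 8 and 18 counts over the 5 anti-CD40 mice with and without ABX, and 23 and 18 over the control mice with and without ABX. The interval over the last exons, shared with Tulp1, had 396 ± 42.3 and 518 ± 41.1 CPM in anti-CD40 mice with and without ABX, against 261 ± 41.9 and 452 ± 83.2 CPM in control mice with and without ABX (SD, n = 5 each). Its group order was that of the Fkbp5 sum. It holds 342 coding bases and a long part of the 3' untranslated region of Fkbp5.

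**Figure D2:**
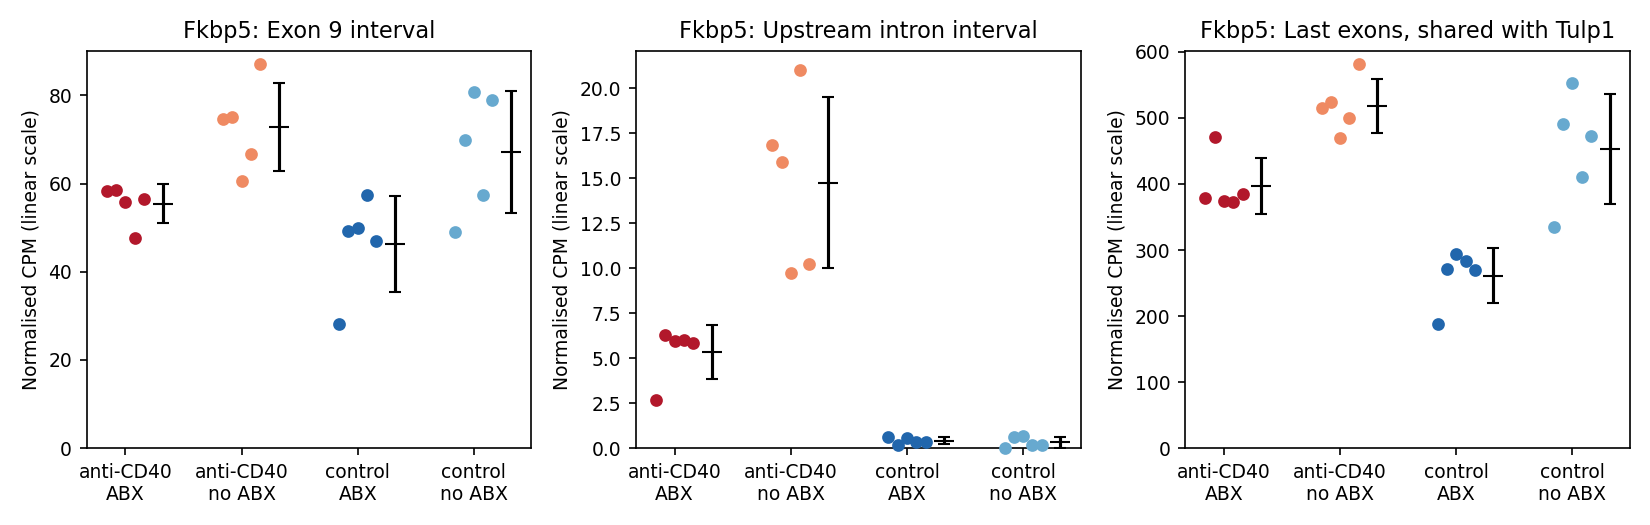
Normalised CPM in each of 20 mice over the 3 counted intervals of Fkbp5, with the mean and SD of each group of 5. The upstream intron interval (middle) is near 0 in control mice and averages 5.37 CPM with ABX and 14.7 CPM without ABX in anti-CD40 mice, while the 2 others are lower with ABX in both treatments.

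Set against control mice, anti-CD40 mice gave the pair opposite readings under ABX and like readings without it. With ABX, the log2 fold change (± SE, from edgeR) was -1.24 ± 0.22 for Per1 and 0.38 ± 0.15 for Fkbp5, with overlapping groups for both. Without ABX it was 1.04 ± 0.22 for Per1, whose groups did not overlap, and 0.38 ± 0.15 for Fkbp5, whose groups did. The difference between the anti-CD40 effects, with ABX minus without ABX, was -2.28 ± 0.31 for Per1 and 0.00 ± 0.20 for Fkbp5. All genes tested had medians between -0.01 and 0.03 in these 3 contrasts. The Fkbp5 value without ABX rests largely on the upstream intron interval: over the exon 9 interval alone it was 0.26 ± 0.16 with ABX and 0.12 ± 0.15 without ABX. Over the shared interval alone it was 0.60 ± 0.12 with ABX and 0.20 ± 0.12 without ABX.

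Set against no ABX, ABX gave like readings in anti-CD40 mice and opposite readings in control mice. In anti-CD40 mice the log2 fold change was -0.94 ± 0.22 for Per1 and -0.53 ± 0.15 for Fkbp5, and neither gene's groups overlapped. In control mice it was 1.34 ± 0.22 for Per1 and -0.53 ± 0.15 for Fkbp5. The Per1 groups overlapped there only through mouse 1, and without that mouse the Per1 value was 1.52 and the Fkbp5 value -0.40. Fkbp5 over the exon 9 interval alone had -0.40 ± 0.15 in anti-CD40 mice and -0.53 ± 0.15 in control mice, so its lower level with ABX did not depend on the upstream interval. The comparisons share groups of mice, so the values of one are not independent of the next.

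**Figure D3:**
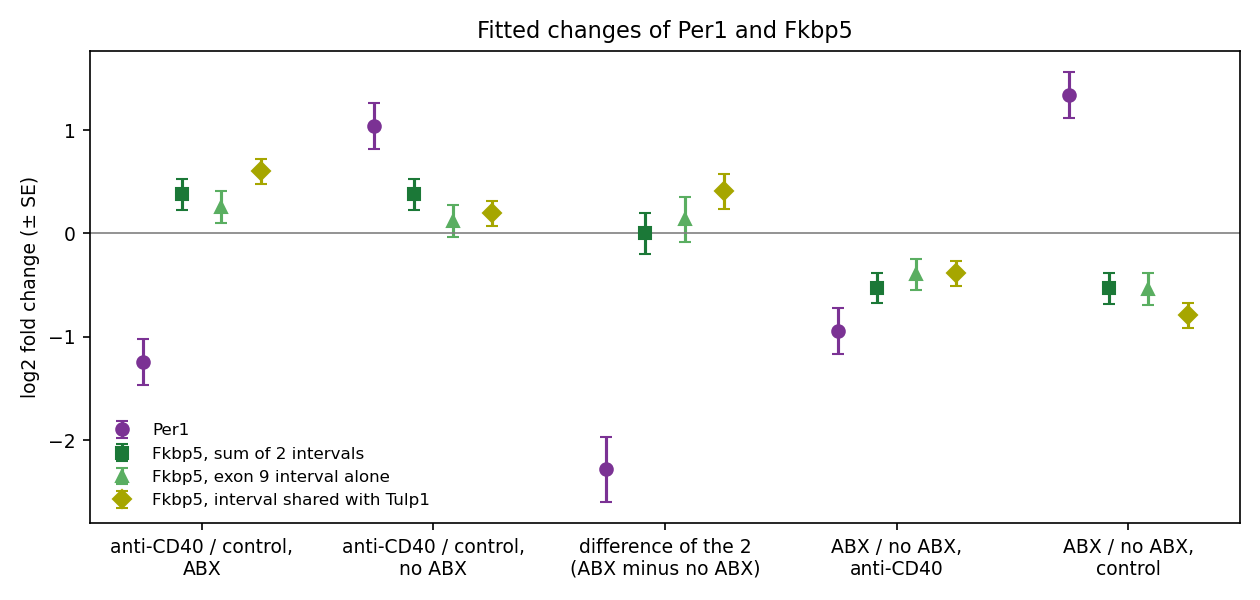
Fitted log2 fold changes with SE (20 mice in 1 fit) for Per1, the Fkbp5 sum, and 2 other readings of Fkbp5 in the 5 comparisons. Per1 lies at -1.24 with ABX and 1.04 without ABX for anti-CD40 against control, while the Fkbp5 sum lies at 0.38 in both.

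Libraries had been laid out on plate columns that follow the groups in part. In well column 3, Per1 averaged 41.5 CPM in the 5 control mice with ABX and 16.3 CPM in 3 control mice without ABX, and Fkbp5 averaged 46.8 and 66.997 CPM. In well column 4, Per1 averaged 17.5 CPM in the 5 anti-CD40 mice with ABX, 32.3 CPM in the only anti-CD40 mouse without ABX there, and 16.5 CPM in 2 control mice without ABX. Fkbp5 averaged 60.8, 91.6 and 68.3 CPM in the same order. Both ABX comparisons thus had the same direction within a column as over all mice, 1 of them against a single mouse. Control mice with ABX and anti-CD40 mice shared no column.

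The other clock genes that could be measured were few: Per2, Per3, Cry1, Cry2, Clock and Arntl (BMAL1) did not reach the test and are not analysed here. The 8 lists of clock, glucocorticoid, FKBP, HSP90 and immediate early genes hold 227 genes besides Per1 and Fkbp5, of which 27 were tested. Calls were made at an adjusted p under 0.05 (edgeR's quasi-likelihood test, Benjamini-Hochberg over 2200 genes). With ABX, 48.1% of the 27 were called in anti-CD40 against control mice, 5 higher and 8 lower. Of all genes tested 51.5% were called there, 26.6% higher and 24.9% lower. Without ABX 74.1% were called, 10 higher and 10 lower, against 60.6% of all genes, 31.8% higher and 28.8% lower. In the difference between the effects 18.5% of the 27 were called, 2 with a positive and 3 with a negative value, against 7.55% of all genes, 4.36% positive and 3.18% negative. For ABX against no ABX in anti-CD40 mice 37.0% were called, 4 higher and 6 lower, against 15.9% of all genes, 8.68% higher and 7.23% lower. In control mice 11.1% were called, 2 higher and 1 lower, against 6.68% of all genes, 3.45% higher and 3.23% lower. The median log2 fold change of the 27 was 0.01 with ABX and -0.06 without ABX, against 0.02 and 0.03 over all genes. The share called was thus above that of all genes in 4 of the 5 comparisons and below it for anti-CD40 against control with ABX; whether the lists differ from other genes was not tested.

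Of the clock core, 2 of 16 other genes were tested. Bhlhe40, a clock repressor that competes for E-boxes, averaged 114 ± 6.13 and 183 ± 26.6 CPM in anti-CD40 mice with and without ABX, against 102 ± 25.96 and 87.2 ± 25.9 CPM in control mice with and without ABX (SD, n = 5 each). For anti-CD40 against control, Bhlhe40 had a log2 fold change of 0.16 ± 0.18 with ABX (adjusted p = 0.484) and rose by 1.07 ± 0.18 without ABX (adjusted p = 4.26e-05). The difference between these effects was -0.91 ± 0.26 (adjusted p = 0.0371). In anti-CD40 mice Bhlhe40 was lower with ABX, with a log2 fold change of -0.69 ± 0.18 (adjusted p = 0.0143). With the well column as a term in the fit, these 3 calls of Bhlhe40 were lost. Rora, the nuclear receptor that activates Bmal1, had log2 fold changes of -0.03 ± 0.11 with ABX and 0.09 ± 0.11 without ABX (adjusted p = 0.849 and 0.491).

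Of the clock output genes, 2 of 20 were tested. Nampt, the enzyme of NAD+ salvage, rose by 2.27 ± 0.16 with ABX and by 1.94 ± 0.16 without ABX on the log2 scale (adjusted p = 1.39e-10 and 7.95e-10). Lpin1, a phosphatidate phosphatase that is also a glucocorticoid target, averaged 32.1 ± 6.04 and 34.1 ± 11.03 CPM in anti-CD40 mice with and without ABX, against 606 ± 102 and 549 ± 206 CPM in control mice with and without ABX. Its log2 fold change was -4.24 ± 0.29 with ABX and -4.01 ± 0.29 without ABX (adjusted p = 6.86e-10 and 1.05e-09). Neither gene passed the test in the difference between the effects.

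Of 35 modifiers and cofactors of clock proteins, 5 were tested. Ncor1, a corepressor of REV-ERB, had -0.07 ± 0.09 with ABX (adjusted p = 0.535) and fell without ABX, with -0.51 ± 0.09 (adjusted p = 4.71e-05); the difference was 0.43 ± 0.13 (adjusted p = 0.0417). Herc2, a ubiquitin ligase, had -0.23 ± 0.10 without ABX (adjusted p = 0.0468), a value that changed sign when library totals replaced TMM scaling. Btrc, which carries period proteins to degradation, and Ep300, an acetyltransferase, passed in none of the 5 comparisons. With library totals, Ncor1 passed neither without ABX nor in the difference.

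Of 52 other glucocorticoid targets, 9 were tested, and those called went in both directions. With ABX 1 was higher, 6 were lower and 2 were not called, where 26.6% of all genes were higher and 24.9% lower. Without ABX 3 were higher, 4 lower and 2 not called, where 31.8% of all genes were higher and 28.8% lower. Their median log2 fold change was -1.30 with ABX and -0.23 without ABX. Nfkbia, the inhibitor of NF-kB, averaged 297 ± 25.1 and 278 ± 54.8 CPM in anti-CD40 mice with and without ABX, against 94.7 ± 25.3 and 50.6 ± 2.82 CPM in control mice with and without ABX. It rose by 1.65 ± 0.16 with ABX and by 2.46 ± 0.16 without ABX (adjusted p = 1.32e-08 and 3.32e-11), and the difference was -0.81 ± 0.22 (adjusted p = 0.0322). In control mice Nfkbia was higher with ABX, by 0.90 ± 0.16 (adjusted p = 0.00229), as Per1 was, with overlapping groups for both. In anti-CD40 mice the genes parted: ABX against no ABX gave Nfkbia 0.09 ± 0.15 (adjusted p = 0.715) and Per1 -0.94 ± 0.22. Anxa1 and Crispld2, named after their values were seen, were the other two that were higher without ABX, by 1.58 ± 0.41 and 2.77 ± 0.57 (adjusted p = 0.00234 and 0.000370); with the well column as a term Crispld2 was not called (adjusted p = 0.0870).

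Foxo1, a transcription factor of fasting metabolism, averaged 80.6 ± 3.77 and 112 ± 24.5 CPM in anti-CD40 mice with and without ABX, against 198 ± 25.7 and 131 ± 9.21 CPM in control mice with and without ABX. It had a log2 fold change of -1.30 ± 0.11 with ABX (adjusted p = 5.87e-10) and -0.23 ± 0.11 without ABX (adjusted p = 0.0775), and the difference was -1.07 ± 0.16 (adjusted p = 0.000500). ABX against no ABX gave Foxo1 -0.48 ± 0.11 in anti-CD40 mice and 0.59 ± 0.11 in control mice (adjusted p = 0.00479 and 0.00229), the same signs as Per1; the call in anti-CD40 mice was lost with the well column as a term. Foxo3, its relative, fell, with log2 fold changes of -1.62 ± 0.13 with ABX and -1.14 ± 0.13 without ABX (adjusted p = 1.86e-10 and 4.96e-08). Hal, which begins histidine breakdown, fell likewise, with -1.54 ± 0.11 with ABX and -1.67 ± 0.11 without ABX (adjusted p = 3.40e-11 and 7.25e-12).

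Among 25 genes of the receptor and of steroid handling, 5 were tested. For anti-CD40 against control with ABX, 0 were called higher and 2 lower, where 26.6% of all genes were higher and 24.9% lower. Without ABX 0 were called higher and 4 lower, where 31.8% of all genes were higher and 28.8% lower. Akr1d1, the 5-beta-reductase that clears steroid hormones, averaged 47.4 ± 9.51 and 15.6 ± 4.18 CPM in anti-CD40 mice with and without ABX, against 289 ± 23.2 and 215 ± 41.9 CPM in control mice with and without ABX. Its log2 fold change was -2.60 ± 0.16 with ABX and -3.78 ± 0.17 without ABX (adjusted p = 8.52e-12 and 6.73e-14), and the difference was 1.18 ± 0.22 (adjusted p = 0.00376). Cyp3a11, a cytochrome P450 with near-identical copies that can share reads, had -1.79 ± 0.24 with ABX and -2.38 ± 0.24 without ABX (adjusted p = 2.95e-06 and 6.77e-08), and for ABX against no ABX in control mice it had -2.17 ± 0.24 (adjusted p = 6.10e-05). Ncoa2, a coactivator of the receptor, had 0.01 ± 0.11 with ABX (adjusted p = 0.928) and -0.44 ± 0.11 without ABX (adjusted p = 0.00138, not called with library totals). Ncoa1, its relative, passed in none of the 5 comparisons.

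FKBP51's family and partners were represented by 4 genes. Fkbp9, an immunophilin of the endoplasmic reticulum and the only other tested FKBP of 14, had 0.16 ± 0.14 with ABX (adjusted p = 0.359) and -0.32 ± 0.14 without ABX (adjusted p = 0.0489, not called with library totals). Of 31 genes of the HSP90 complex 3 were tested, and all 3 were called higher in anti-CD40 than in control mice without ABX, where 31.8% of all genes were. Hsph1, a nucleotide exchange factor of HSP70, rose by 0.89 ± 0.12 with ABX and by 0.92 ± 0.12 without ABX (adjusted p = 1.15e-06 and 6.22e-07). Stip1, which links HSP70 to HSP90, rose by 0.56 ± 0.08 with ABX and by 0.29 ± 0.08 without ABX (adjusted p = 2.21e-06 and 0.00256). Cdc37, the HSP90 partner for kinases, had 0.11 ± 0.07 with ABX and 0.18 ± 0.07 without ABX (adjusted p = 0.198 and 0.0356), and its call was lost in most fits that left out a single mouse. Whether the complex differs from other genes was not tested.

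Of 40 CREB and immediate early genes, 2 were tested. Nr4a1, an immediate early nuclear receptor, averaged 13.9 ± 4.18 and 26.1 ± 8.18 CPM in anti-CD40 mice with and without ABX, against 9.04 ± 4.60 and 6.31 ± 2.15 CPM in control mice with and without ABX. It had 0.62 ± 0.31 with ABX (adjusted p = 0.102) and rose by 2.05 ± 0.31 without ABX (adjusted p = 9.81e-06); the difference, -1.43 ± 0.44, did not pass (adjusted p = 0.0513). Pde4b, a cAMP phosphodiesterase, rose by 3.32 ± 0.31 with ABX and by 2.53 ± 0.29 without ABX (adjusted p = 2.78e-08 and 5.82e-07). With well column as a term in the fit, none of the 2200 genes passed in the difference between the effects (edgeR, 282 at an unadjusted p under 0.05), so Bhlhe40, Ncor1, Nfkbia, Foxo1 and Akr1d1 lost that call. For ABX against no ABX in anti-CD40 mice 5 genes passed with that term; the calls of Akr1d1 and Cyp3a11 held, and those of Bhlhe40, Foxo1, Ncor1, Ncoa2, Stip1 and Nr4a1 did not. For anti-CD40 against control without ABX, the calls of Bhlhe40, Herc2, Fkbp9, Stip1 and Cdc37 were lost with it. The calls of Bhlhe40, Ncor1 and Nfkbia in the difference were also lost when some single mice were left out.

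**Figure D4:**
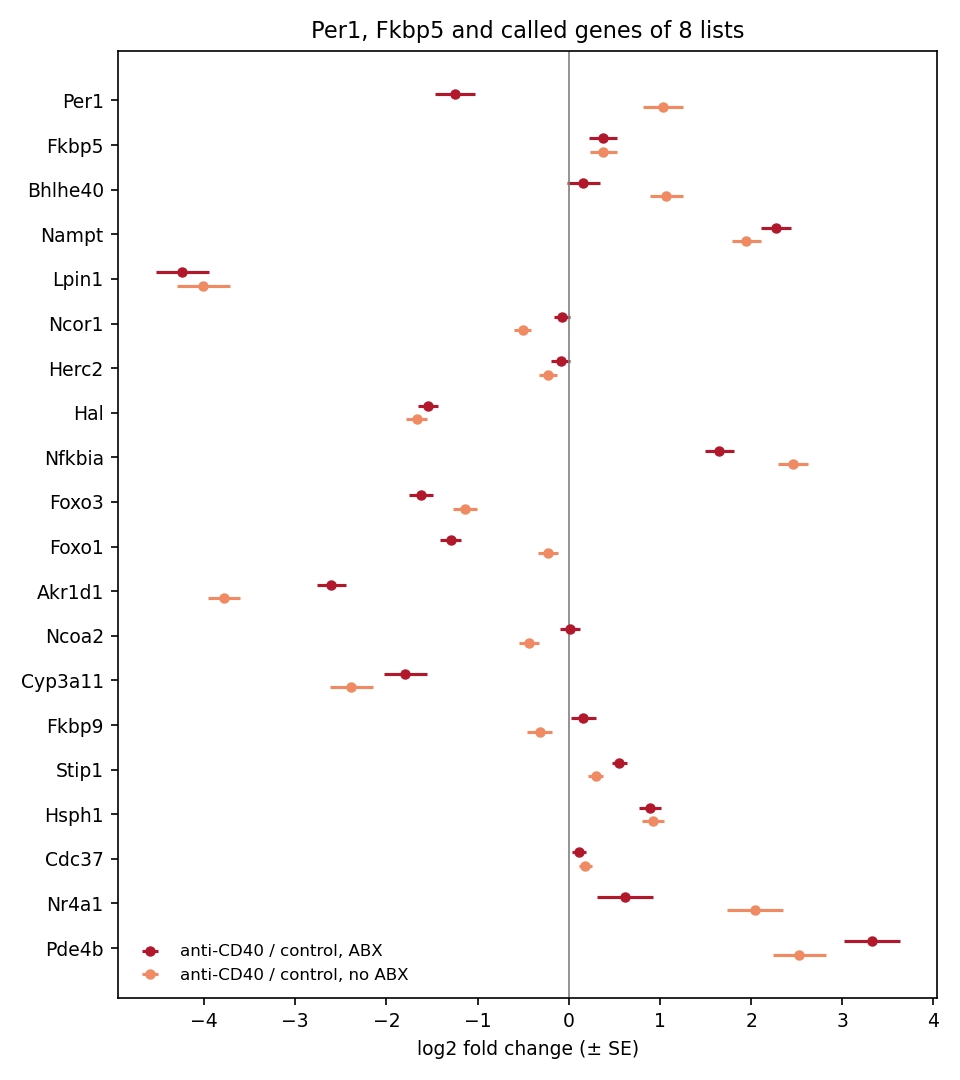
Log2 fold changes with SE of anti-CD40 against control, with ABX and without ABX, for Per1, Fkbp5 and those named genes of 8 lists that passed the test in at least 1 of 5 comparisons (20 mice in 1 fit). Per1, which was chosen by its levels in these groups, lies on both sides of 0, at -1.24 with ABX and 1.04 without ABX.

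The pair was also set against each other between mice of the same group, a relation that the group levels do not fix. Deviations of log2 CPM from the group mean had a Pearson r of 0.682 over 20 mice (permutation p = 0.00966 within groups, adjusted 0.0193 over 2 coefficients) and a Spearman rho of 0.397 (permutation p = 0.0924, adjusted 0.0924). Much of the relation rests on mouse 1 of the control mice with ABX, which was low in both genes. Without mouse 1 alone r was 0.370 and no longer passed. Mouse 4 of that group, high in both genes, was the next farthest from the median of the Per1 deviation. Without mice 1 and 4 r was 0.298 (permutation p = 0.221) and rho 0.115 (permutation p = 0.660) over 18 mice. Within well column 3, which holds both, r was 0.892 and rho 0.786 over 8 mice. Within well column 4 r was 0.300 and rho -0.0238 over 8 mice, and column 5 held only 4 mice.

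**Figure D5:**
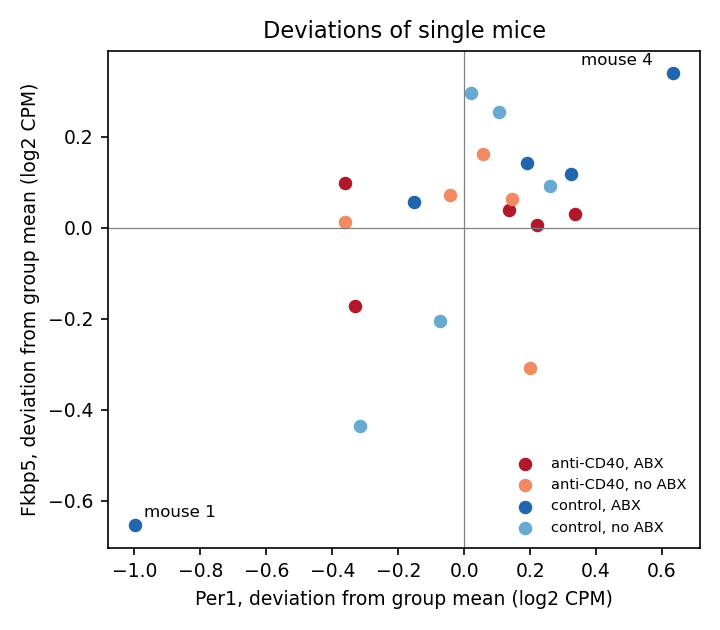
Deviation of each of 20 mice from its group mean in log2 CPM, Per1 on the x axis and Fkbp5 on the y axis. Mouse 1 lies far to the lower left and mouse 4 to the upper right, and without these 2 the Pearson r is 0.298 in place of 0.682.

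Across the 20 libraries, the genes whose centred log2 CPM stayed closest to Per1 were Got1, Plpbp, Anapc7, Slc25a27 and Usp37, with root mean square differences of 0.43 to 0.51 log2 units. Plpbp and Slc25a27 had low levels, with group means of 0.876 to 1.75 and 1.35 to 3.25 CPM. This measure is a distance, so ranks depend on the size of the changes as well as on their pattern. Got1, the cytosolic aspartate aminotransferase, averaged 186 and 223 CPM in anti-CD40 mice with and without ABX, and 334 and 225 CPM in control mice with and without ABX. Fkbp5 ranked 827 of 2188 genes in likeness to Per1, at 0.73. The genes closest to Fkbp5 were Mocs3, Cdc34, Sugp1, Zfp64 and Cpne2, at 0.27 to 0.28. Cdc34, a ubiquitin-conjugating enzyme, averaged 311 and 348 CPM in anti-CD40 mice with and without ABX, and 215 and 271 CPM in control mice with and without ABX. Per1 ranked 1553 of 2188 in likeness to Fkbp5.

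Libraries held 5053014 to 7618736 counts. Mitochondrial transcripts took 20.9% to 25.8% and 23.7% to 25.7% of counts in anti-CD40 mice with and without ABX, and 29.5% to 35.1% and 22.4% to 31.1% in control mice with and without ABX. The tissue label was checked with 5 measured hepatocyte markers of 22, among them Alb, whose summed level was 105677 to 138623 and 71824 to 103604 CPM in anti-CD40 mice with and without ABX, and 234436 to 313028 and 221013 to 243150 CPM in control mice with and without ABX. Of these 5, 4 were called lower and 1 higher for anti-CD40 against control, both with and without ABX. Of all genes tested, 24.9% were lower and 26.6% higher with ABX, and 28.8% lower and 31.8% higher without ABX. The higher one was Apob, by 0.38 ± 0.08 with ABX and 0.23 ± 0.08 without ABX (adjusted p = 0.000422 and 0.0181). The 5 measured Kupffer cell and macrophage markers of 17 summed to 307 to 915 and 283 to 1103 CPM in anti-CD40 mice with and without ABX, against 129 to 197 and 127 to 353 CPM in control mice with and without ABX. These markers did not move together: 3 were called higher and 2 lower with ABX, and 2 higher and 2 lower without ABX. The shares of all genes are those given for the hepatocyte markers. Lyz2, which made up most of the sum, averaged 547 ± 281 and 612 ± 302 CPM in anti-CD40 mice with and without ABX, against 113 ± 15.1 and 123 ± 44.0 CPM in control mice with and without ABX. Adgre1, the F4/80 antigen, had log2 fold changes of -2.54 ± 0.39 with ABX and -2.50 ± 0.38 without ABX (adjusted p = 2.27e-05 and 1.63e-05), and Mrc1 was the other that was lower. The 3 T cell and NK cell markers of 17 summed to 4.69 to 8.33 and 3.78 to 8.32 CPM in anti-CD40 mice with and without ABX, against 0 to 1.24 and 0.699 to 2.08 CPM in control mice with and without ABX. The 3 sinusoidal endothelial markers of 11 summed to 14.5 to 69.8 and 25.5 to 102 CPM in anti-CD40 mice with and without ABX, against 89.0 to 113 and 98.1 to 145 CPM in control mice with and without ABX. Of these Stab2 fell without overlap of groups, by -3.83 ± 0.33 with ABX and -3.36 ± 0.31 without ABX (adjusted p = 7.67e-09 and 2.50e-08). Stab1 was called lower with ABX only (adjusted p = 0.0410 with and 0.629 without ABX). Pecam1 passed in neither comparison (adjusted p = 0.433 with and 0.777 without ABX). The hepatocyte and T cell sums separated anti-CD40 from control mice, and the endothelial and macrophage sums overlapped in part. The 3 B cell and plasma cell markers of 11 summed to 330 to 410 and 360 to 492 CPM in anti-CD40 mice with and without ABX, and 222 to 320 and 251 to 427 CPM in control mice with and without ABX. Xbp1, which made up most of this sum, averaged 340 ± 27.6 and 409 ± 51.5 CPM in anti-CD40 mice with and without ABX. In control mice Xbp1 averaged 239 ± 38.6 and 326 ± 68.1 CPM with and without ABX. Xbp1 was called higher in anti-CD40 than in control mice, by 0.51 ± 0.13 with ABX and 0.33 ± 0.13 without ABX (adjusted p = 0.00217 and 0.0322). This sum thus follows Xbp1 rather than the 2 other markers, and which liver cells held Xbp1 was not determined. Ighm was called higher with ABX, by 0.71 ± 0.16 (adjusted p = 0.000680), but not without ABX (adjusted p = 0.649). Cd79b passed in neither comparison (adjusted p = 0.0774 with ABX and 0.847 without ABX). The 2 stellate cell markers of 11 summed to 6.79 to 51.3 and 17.6 to 129 CPM in anti-CD40 mice with and without ABX, against 75.8 to 185 and 101 to 214 CPM in control mice with and without ABX. Both, Col3a1 and Lum, were called lower with ABX (adjusted p = 0.00532 and 0.0198), where 24.9% of all genes were. Neither passed without ABX, and with the well column as a term both calls were lost. The 2 cholangiocyte markers of 8 summed to 9.37 to 10.2 and 14.3 to 27.7 CPM in anti-CD40 mice with and without ABX, against 2.23 to 5.90 and 4.55 to 7.33 CPM in control mice with and without ABX, without overlap. Of these Sox9 rose by 2.43 ± 0.29 with ABX and by 3.05 ± 0.25 without ABX (adjusted p = 1.36e-07 and 2.40e-10). Pkhd1, the other, went the opposite way, with -0.68 ± 0.34 with ABX (adjusted p = 0.0984) and -1.18 ± 0.34 without ABX (adjusted p = 0.00456). Of 7 adipose markers 1 was tested, Cfd, and Lep was at 0 in every mouse. Cfd had a log2 fold change of -0.01 ± 0.95 with ABX (adjusted p = 0.991). Without ABX it averaged 0.803 ± 0.459 CPM in anti-CD40 mice and 10.6 ± 11.1 CPM in control mice, a log2 fold change of -3.70 ± 0.92 (adjusted p = 0.00206) whose call was lost with the well column as a term. Neutrophil and adrenal markers had no tested member. The part of any of these markers in the Per1 and Fkbp5 levels was not tested.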

How the data were processed

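Liver RNA of 20 mice, 5 in each of 4 groups, was sequenced. The deposited data are raw fragment counts, in 1 table for each mouse. Per the submitters' processing notes, the authors used Trimmomatic 0.38 and HISAT2 2.1.0, and mm10 is the build named. Per the file headers, the deposited counts were made with featureCounts 1.5.0-p2 in paired mode, with no strand option, over exons grouped by gene in Ensembl's human annotation (GRCh38, release 93). The 3576 features on human chromosomes 20, 21 and 22, which mice lack, held 0 counts.

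Feature coordinates were therefore read as mm10 intervals and intersected with GENCODE M21 exons (bedtools 2.31.1). Features over exactly 1 mouse gene by at least 50 bp were summed per gene. Of 58395 features, 7463 were attributed to 5552 genes and held 46.4% of counts. Attributed counts numbered 1982666 to 2411616 and 2006929 to 2246980 in anti-CD40 mice with and without ABX. In control mice they numbered 3346191 to 3836995 and 3326128 to 4048783 with and without ABX. The attributed part of the total was thus smaller in anti-CD40 than in control libraries. The 2200 genes that passed filterByExpr were fitted with edgeR 4.0.16 in R 4.3.3, with totals over all features as library sizes, TMM scaling, a mean per group over all 20 libraries, robust dispersions and two-sided quasi-likelihood tests, adjusted by Benjamini-Hochberg and called under 0.05. The biological coefficient of variation was 16.7%, and libraries held 5053014 to 7618736 counts. The code was tested on simulated data.

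Per1, Fkbp5, the 8 pathway lists and the marker lists were chosen with earlier results of these data known. The text names all tested members of a list of up to 6, except 1 that is not reported here. Of a longer list it names the 4 with the smallest p without ABX and the 2 with the smallest p in the difference. It also names the 5 genes most like Per1 and Fkbp5 with a mean of at least 1 CPM, and the leading markers. The relation between mice was permuted 100000 times within groups. Alternatives were library totals, DESeq2 1.42.0, no filter, attribution from 1 bp, the well column as a term, leaving out each mouse, and, added after seeing the data, each Fkbp5 interval alone. Mice are individual animals per the labels. Promoter sequences are from RefSeq on GRCm38.p6, whose 2 Per1 windows and 1 Fkbp5 window matched by symbol.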

Additional observations from a re-analysis of the deposited data

Results flagged for a closer look

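In 20 groups of 5 mice (Per1, the Fkbp5 sum and 3 Fkbp5 intervals in 4 groups each), 4 had a mouse far from the other mice of its group. Chance flags about 1 in 20 groups, and these 20 are not independent, since the Fkbp5 sum holds the exon 9 and upstream intervals. Mouse 14 of the anti-CD40 mice with ABX had 47.7 CPM over the exon 9 interval of Fkbp5, below the other mice. Mouse 11 of the same group had 2.70 CPM over the upstream intron interval, also below. Over the shared interval of the last exons, mouse 12 of that group stood above the others at 471.7 CPM, and mouse 1 of the control mice with ABX stood below at 188.5 CPM.

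The effect of anti-CD40 differed between mice with ABX and mice without ABX, by an interaction term in edgeR, for 5 of the named genes. Of the 27 list genes tested 18.5% were called in this difference, against 7.55% of all genes. The named glucocorticoid targets were picked in part by a small p in this same difference. The differences on the log2 scale, with ABX minus without ABX, were 1.18 for Akr1d1 and 0.43 for Ncor1, and -0.91 for Bhlhe40, -1.07 for Foxo1 and -0.81 for Nfkbia. With the well column as a term none of these 5 passed.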

How the results depend on the processing

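No paired analysis was possible because each mouse number occurs in 1 group only. With library totals in place of TMM, the medians of all genes were 0.37 with ABX, 0.27 without ABX, 0.10 in the difference, -0.04 for ABX in anti-CD40 mice and -0.14 for ABX in control mice. Fkbp5 then had 0.74 with ABX and 0.62 without ABX, and Per1 had -0.87 with ABX and 1.29 without ABX, so both kept their signs. The share of calls that were higher was 76.8% in place of 51.6% (TMM) with ABX, 69.7% in place of 52.5% without ABX, 80.3% in place of 57.8% in the difference, and 20.1% in place of 51.7% for ABX in control mice. Herc2 without ABX reversed there, at 0.0092; the cause was not tested. With the well column as a term, calls numbered 690 with ABX, 735 without ABX, 0 in the difference (282 at an unadjusted p under 0.05), 5 for ABX in anti-CD40 mice and 77 in control mice. In that order Per1 had -1.26 ± 0.42, 0.97 ± 0.44, -2.23 ± 0.47, -0.89 ± 0.38 and 1.34 ± 0.28. Fkbp5 had 0.35 ± 0.28, 0.42 ± 0.30, -0.07 ± 0.32, -0.59 ± 0.26 and -0.52 ± 0.18. Each of these SEs was larger than in the fit without that term. Over the shared interval alone, an alternative chosen after seeing the data, the Fkbp5 difference was 0.41.

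Leaving out each mouse gave 88 to 194 calls in the difference (166 with all mice), 225 to 380 for ABX in anti-CD40 mice (350) and 89 to 157 for ABX in control mice (147). Counts were over 1.5 times lower in the difference without mouse 4 (109), 5 (110), 10 (104), 14 (88) or 18 (94), for ABX in anti-CD40 mice without mouse 14 (225) or 18 (230), and for ABX in control mice without mouse 4 (90) or 10 (89). The Pearson r of Per1 and Fkbp5 ranged from 0.370 without mouse 1, where it no longer passed, to 0.778. Per1 kept its sign in every such fit, as did Fkbp5 outside the difference. Of 44 calls of named list genes, 44 held with DESeq2 and 44 with attribution from 1 bp, 36 without the filter, 36 with library totals and 28 with the well column. Single mice left out ended 8 of them at least once: Bhlhe40, Ncor1 and Nfkbia in the difference, Herc2, Fkbp9 and Cdc37 without ABX, and Stip1 and Nr4a1 for ABX in anti-CD40 mice. At 78 to 341 counts per mouse for Per1, counting error is a part of the spread between mice.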
